A study of Rattus norvegicus with 9 samples.

Results

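The 9 genes described here encode transient receptor potential (TRP) channels of sensory neurons: Trpv1, Trpv2, Trpa1, Trpm8, Trpm2, Trpm3, Trpm7, Trpc1 and Trpc6. They were taken from the gene table by symbol, 9 of 20194 genes, and followed in dorsal root ganglia (DRG) of sham rats, rats with spared nerve injury (SNI) and SNI rats given G15 (SNI + G15), with 3 libraries in each group. The animals were adult male Sprague Dawley rats of 8 to 10 weeks. SNI is a partial injury of the sciatic nerve, after which the sural is its only large branch still joined to the skin of the hind paw. G15, an antagonist of the G protein-coupled oestrogen receptor GPER, was given at 1.8 μg/μl in 1 μl through an intrathecal catheter placed on day 5 after SNI. The sample titles call the sham and the SNI libraries alike the control for G15, and whether those rats were given the vehicle alone is not stated. The protocol in the labels is worded alike for all 9 samples, with 2% DMSO as the solvent, a catheter on day 5 and drug injection for 24 h. No genotype or transgene distinguished the groups.

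TRP channels are cation channels that open to heat, cold, irritants, lipids or stretch and carry sodium and calcium into the cell. In the DRG, TRPV1 (capsaicin, acid and noxious heat), TRPA1 (reactive irritants such as mustard oil) and TRPM8 (menthol and cooling) are best known from small-diameter sensory neurons, and TRPM3 is another heat-activated channel of such neurons. TRPV2, TRPM2, TRPM7, TRPC1 and TRPC6 are also found outside neurons, TRPV2 and TRPM2 in macrophages among other cells.

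The libraries held between 18484557 and 18756736 estimated reads in genes, and each of the 9 TRP genes had between 70.0 and 2182 of them in every library. All 7 nerve injury markers (Atf3, Gal, Npy, Sprr1a, Jun, Gap43 and Sox11) were higher in SNI than in sham, and the 10 pan-neuronal and 10 nociceptor markers were detected in every library, so the labelled tissue and injury are seen in the values. The tissue is a mixture of cells. The summed FPKM of 8 macrophage markers was 49.6 to 55.7 in sham, 110 to 123 in SNI, with 121 to 124 in SNI + G15, while the geometric mean of the 10 pan-neuronal markers was 194 to 201, 181 to 185 and 168 to 173. In such bulk tissue, fewer cells of a type and less RNA per cell cannot be told apart. One library, SNI + G15 replicate 3, lay somewhat apart, with a spread around its group of 0.218 on the log2 scale against 0.162 to 0.183 in the other 8 libraries.

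In sham ganglia the gene of the capsaicin receptor, Trpv1, was the most abundant of the 9 by FPKM (a level scaled to transcript length and library size), at 39.9 ± 0.857 (SD, n = 3). Trpv2 followed at 28.6 ± 0.821, then Trpm8 at 18.6 ± 0.637 and Trpa1 at 17.3 ± 0.576, whose ranges overlapped. Trpc1, Trpm7, Trpm2 and Trpm3 lay between 8.30 and 5.59, and Trpc6 was lowest at 2.19. After SNI the order at the top was exchanged, with Trpv2 at 35.8 ± 0.780 above Trpv1 at 31.5 ± 0.429, and Trpm2 moved from rank 7 to rank 5. In SNI + G15, Trpv2 (37.0) stayed above Trpv1 (27.5), Trpm8 and Trpa1 overlapped again, and Trpc1, Trpm2 and Trpm7 could not be ordered beyond their spread.

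**Figure D1:**
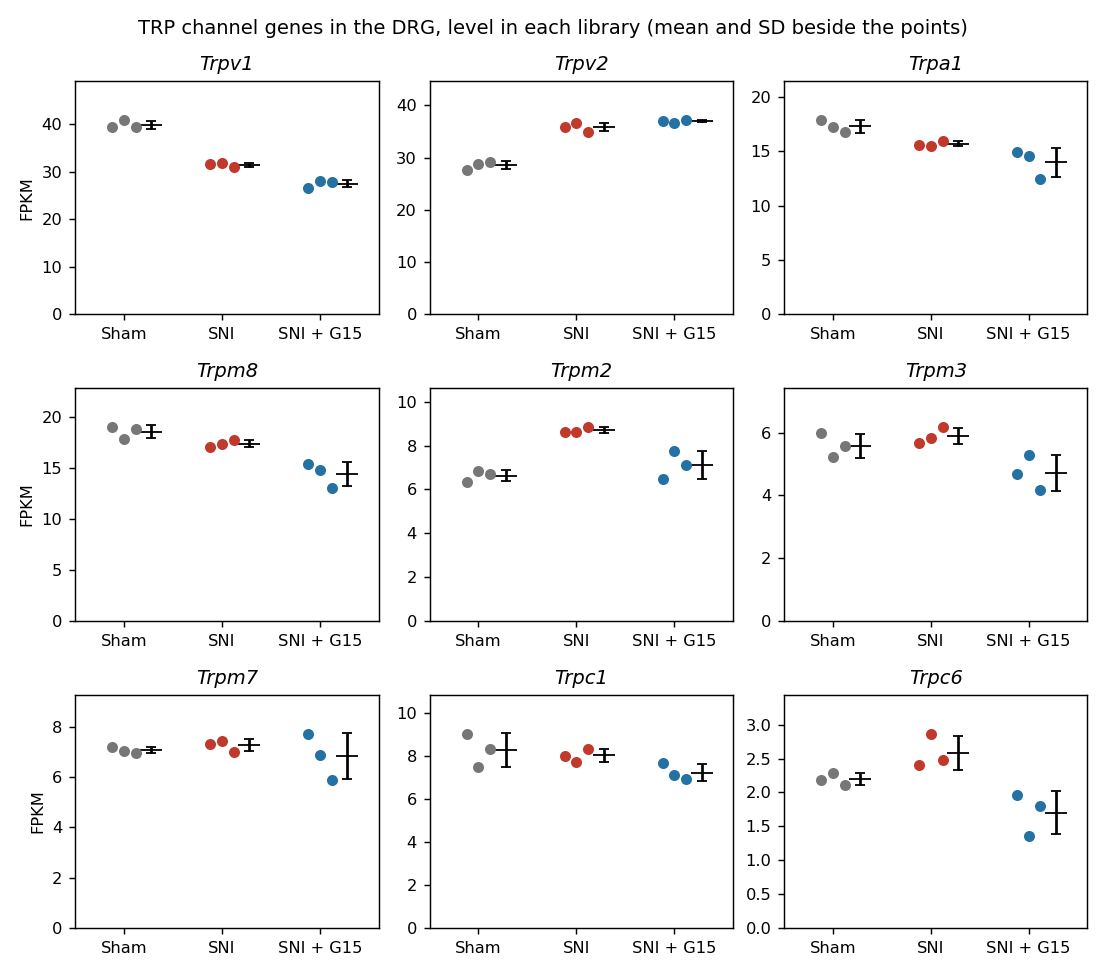
Level of each of the 9 TRP channel genes in FPKM (vertical axes, each starting at 0) in the 3 sham, 3 SNI and 3 SNI + G15 libraries; each point is a library, and the bar beside the points is the group mean with its SD (n = 3). Trpv1 steps down and Trpv2 steps up from sham to SNI without overlap, while Trpm7 lies between 5.89 and 7.73 in all groups.

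The comparison of SNI with sham asks how nerve injury changes these genes. By edgeR's quasi-likelihood test, 5 of the 9 changed: Trpv2 and Trpm2 rose and Trpv1, Trpa1 and Trpm8 fell, each by less than 0.4 on the log2 scale. This count stands against a large background, since 45.7% of the 14305 genes tested were called, 23.3% higher and 22.4% lower. FPKM values of SNI and sham did not overlap for 6 of the 9 genes, against 53.9% of all genes tested. The median log2 change of the 9 genes was 0.0071 and that of all genes tested 0.0010, so the 9 genes did not lean to either side as a list.

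Giving G15 to injured rats is addressed by SNI + G15 against SNI. Here 4 of the 9 genes fell (Trpv1, Trpm8, Trpm3 and Trpc6), none rose (at an unadjusted p under 0.05, 6 were lower and 0 higher by edgeR; DESeq2 called these 4 lower and 0 higher, and limma called 4 lower and 0 higher with Trpm2 in place of Trpm3), and 8 of the 9 estimates were below 0, with a median of −0.18 against 0.0063 over all genes tested. Over all genes, 15.2% were called, 7.98% higher and 7.25% lower. FPKM values of the 2 groups did not overlap for 8 of the 9 genes, against 38.3% of all genes. All 4 calls lay near the threshold and were lost whenever any of the 3 SNI libraries was left out, when 893 to 1098 genes in all were called instead of 2179 and 4 to 5 of the 9 kept an unadjusted p under 0.05; without SNI + G15 replicate 1, 2 of the 4 remained. The estimates kept their sign in each of these fits.

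SNI + G15 against sham uses the same libraries again, so it is no separate evidence. In it 5 genes were lower (Trpv1, Trpa1, Trpm8, Trpm3 and Trpc1) and Trpv2 was higher. The shares over all genes were 43.2% called, 21.4% higher and 21.9% lower. Values of these groups did not overlap for 5 of the 9 TRP genes and for 52.9% of all genes, and the median change was −0.29 against −0.0037.

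**Figure D2:**
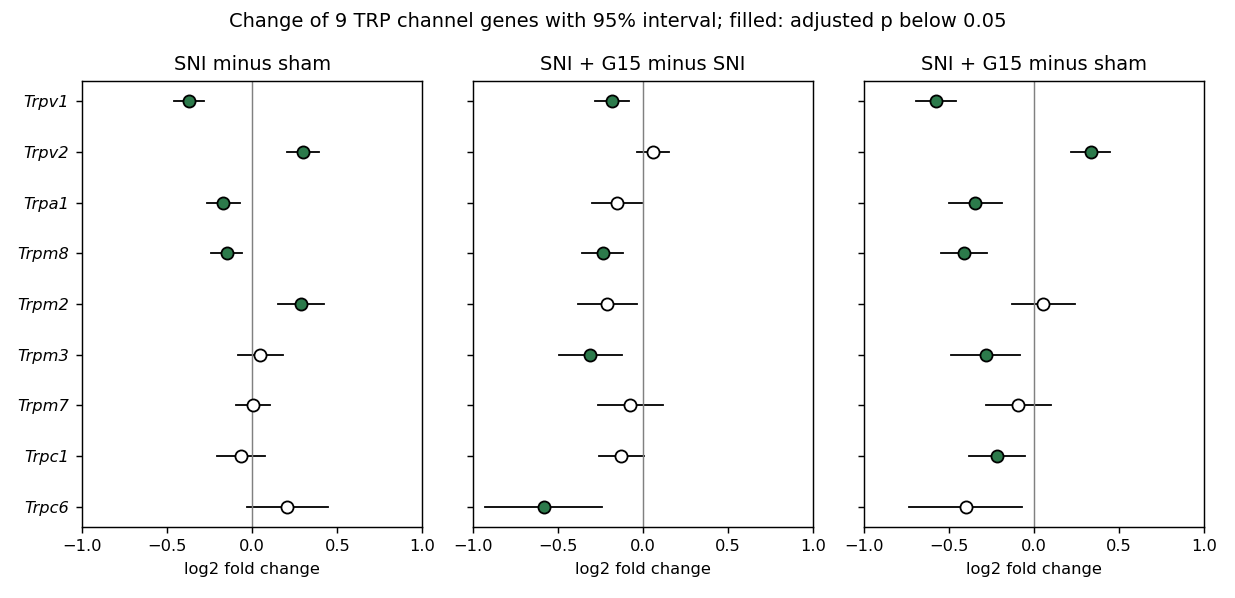
Log2 fold change of each TRP channel gene (horizontal axis) with its 95% interval in the 3 comparisons, by edgeR's quasi-likelihood test on 3 against 3 libraries; filled points have an adjusted p below 0.05. In SNI + G15 minus SNI, 8 of 9 estimates lie left of 0 and 4 are filled; in SNI minus sham, 2 filled points lie right of 0 and 3 left.

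Trpv1 and Trpv2 were the pair with the clearest opposite course. Both have a RefSeq promoter entry on rat chromosome 10 (build GRCr8), and the 250 bases before each annotated start are shown to set the sequences of the 2 oppositely moving genes side by side. The letters of 6 short motifs were searched on either strand. These were TATAAA for the TATA box, GGGCGG for the GC box, CCAAT for the box of that name, TGANTCA for the AP-1 site, TGACGTCA for the cAMP response element and TTCNNNGAA for the STAT element. No motif holds another, and capitals mark the matches. Trpv1 is at chr10:58349686-58349935 and Trpv2 at chr10:47771973-47772222, both on the plus strand.
Trpv1: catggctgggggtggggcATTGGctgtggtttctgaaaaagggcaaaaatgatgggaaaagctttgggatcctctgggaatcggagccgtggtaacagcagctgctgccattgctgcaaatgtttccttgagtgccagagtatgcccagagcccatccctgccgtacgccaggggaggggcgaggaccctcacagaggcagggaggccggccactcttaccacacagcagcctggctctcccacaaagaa
Trpv2: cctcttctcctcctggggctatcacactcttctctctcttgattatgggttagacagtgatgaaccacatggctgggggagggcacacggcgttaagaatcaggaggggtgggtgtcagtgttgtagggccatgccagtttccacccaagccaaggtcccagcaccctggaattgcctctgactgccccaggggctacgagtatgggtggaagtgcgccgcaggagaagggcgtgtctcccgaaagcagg
The Trpv1 window held a CCAAT box on the minus strand, 232 bases before the start, and 34.0% of all 33469 RefSeq promoter windows of this length held such a box on either strand. The Trpv2 window held none of the 6 motifs. The AP-1 site (in 6.34% of all windows) and the cAMP response element (1.59%) were in none of the 7 TRP genes with an entry. GC content was 58.4% in both windows, and the median over all windows was 51.2%.

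Trpv1, the channel gated by capsaicin, protons and noxious heat, was at 39.5, 40.9 and 39.3 FPKM in the sham libraries, 31.6, 31.8 and 31.0 in SNI, and 26.7, 28.1 and 27.7 in SNI + G15. The 3 groups did not overlap and descended in that order. In SNI it fell by 0.37 on the log2 scale (SE 0.040, edgeR adjusted p = 2.69e-05), and this held in all 17 alternative fits. From SNI to SNI + G15 it fell by 0.18 more (SE 0.044, edgeR adjusted p = 0.0262), and the adjusted p ran from 0.0118 to 0.187 over the alternatives. Against sham, the SNI + G15 libraries were lower by −0.58 (SE 0.052, edgeR adjusted p = 1.60e-05). Per 100 FPKM of pan-neuronal markers (their geometric mean), Trpv1 was 19.6 to 21.1 in sham, 16.8 to 17.6 in SNI, with 15.9 to 16.2 in SNI + G15, again without overlap.

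Trpv2, a close relative of Trpv1 that capsaicin does not open and that is found in larger sensory neurons and in macrophages, was at 27.7, 28.9 and 29.2 FPKM in sham and at 35.8, 36.6 and 35.0 in SNI. In SNI + G15 it was at 37.1, 36.7 and 37.2. Every injured library lay above every sham library. The rise from sham to SNI was 0.30 on the log2 scale (SE 0.042, edgeR adjusted p = 0.000234), and all 17 alternatives called it. SNI + G15 and SNI differed by 0.06 (SE 0.041, 95% interval −0.03 to 0.15, edgeR adjusted p = 0.353), so a change of up to 0.15 upward could not be told from none. The summed FPKM of macrophage markers rose with Trpv2 from sham to SNI. Of the 8 markers, 7 were called higher, beside 23.3% of all genes (2 of 8 and 7.98% from SNI to SNI + G15). Their part in the Trpv2 result was not tested. Per 100 FPKM of pan-neuronal markers, Trpv2 was 13.8 to 14.9 in sham, 18.9 to 20.2 in SNI, with 21.2 to 22.1 in SNI + G15.

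Within each library, the ratio of Trpv1 to Trpv2 FPKM needs no scaling between libraries. It was 1.43, 1.42 and 1.35 in sham, 0.883, 0.871 and 0.886 in SNI, and 0.719, 0.765 and 0.745 in SNI + G15. All sham libraries were above 1 and all injured ones below it, and SNI + G15 lay below SNI without overlap. Both genes were paired for their opposite course in these same libraries. Neither this separation nor their correlation is therefore separate evidence. With 3 against 3 libraries no exact test of a single ratio can go below a p of 0.1, and none is given. Over the 9 libraries the levels of both genes ran against each other (Pearson r = −0.948 of log2(FPKM + 1)), a description in which the 3 groups carry most of the spread.

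**Figure D3:**
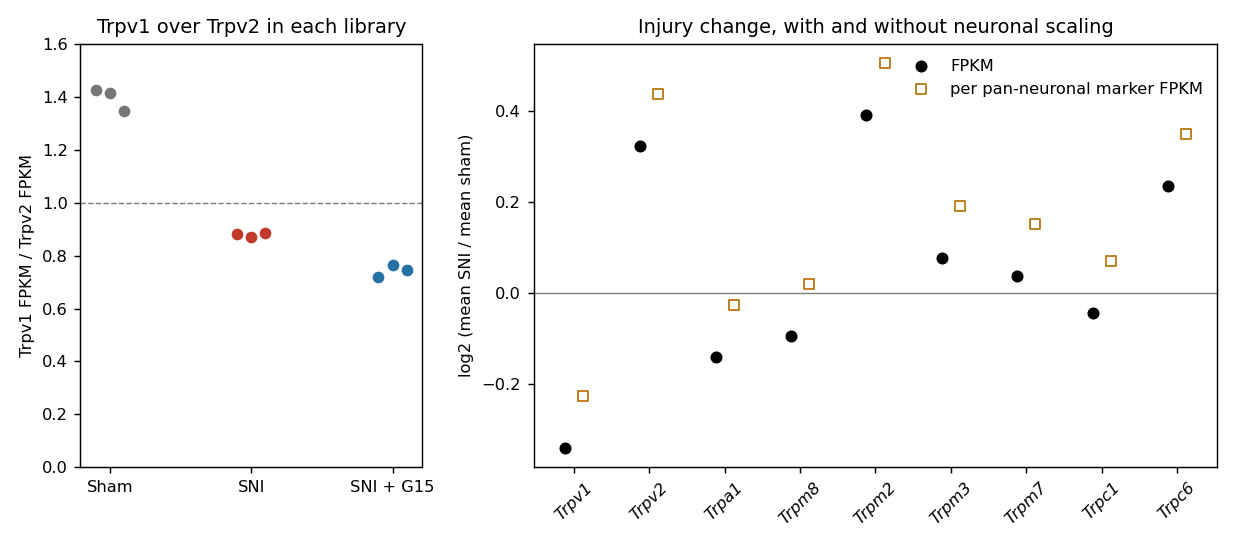
Left, the ratio of Trpv1 to Trpv2 FPKM in each library, with a dashed line at 1; right, the log2 ratio of the SNI mean to the sham mean for each TRP gene, from FPKM (filled circles) and from FPKM divided by the geometric mean of 10 pan-neuronal markers in the same library (open squares). Scaling to neuronal markers moves every gene up by 0.11, which brings Trpa1 and Trpm8 close to 0.

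Trpa1, the sensor of reactive irritants that often shares a neuron with TRPV1, was at 17.9, 17.3 and 16.8 FPKM in sham and at 15.6, 15.5 and 16.0 in SNI. The SNI + G15 libraries were at 14.9, 14.6 and 12.5, the lowest being replicate 3. No 2 groups overlapped. Trpa1 fell by 0.17 in SNI (SE 0.045, edgeR adjusted p = 0.0103) and was lower by −0.35 in SNI + G15 than in sham (SE 0.070, edgeR adjusted p = 0.00282). SNI + G15 minus SNI was −0.15 (SE 0.066, 95% interval −0.30 to −0.01, edgeR adjusted p = 0.142), which did not pass, and without SNI + G15 replicate 3 it was −0.08. Per 100 FPKM of pan-neuronal markers, Trpa1 was 8.35 to 8.90 in sham, 8.45 to 8.65 in SNI, with 7.32 to 8.90 in SNI + G15, and all groups overlapped.

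Trpm8, the menthol and cold receptor, was at 19.1, 17.9 and 18.8 FPKM in sham, 17.1, 17.4 and 17.7 in SNI, and 15.4, 14.8 and 13.1 in SNI + G15. The groups did not overlap, although sham and SNI nearly met. Trpm8 fell by 0.15 in SNI (SE 0.041, edgeR adjusted p = 0.0121), a call that was lost without SNI replicate 1 (edgeR adjusted p = 0.0550) and by limma. It fell by 0.24 from SNI to SNI + G15 (SE 0.053, edgeR adjusted p = 0.0206) and was lower by −0.41 in SNI + G15 than in sham (SE 0.061, edgeR adjusted p = 0.000414). Its promoter is the only one of the 7 found that holds a TATA box, and it is shown for that reason, with the TATAAA match 54 bases and a STAT element 104 bases before the start in capitals (chr9:96351433-96351682, plus strand, GRCr8, RefSeq).
Trpm8: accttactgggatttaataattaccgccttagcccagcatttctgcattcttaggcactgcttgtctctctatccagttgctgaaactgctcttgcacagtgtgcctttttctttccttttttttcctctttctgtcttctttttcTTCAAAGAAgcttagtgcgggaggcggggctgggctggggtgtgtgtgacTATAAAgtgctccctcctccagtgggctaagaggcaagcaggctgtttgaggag
TATAAA was in 12.9% of all promoter windows, the STAT element in 7.67%, and GC content was 48.0%. Per 100 FPKM of pan-neuronal markers, Trpm8 was 9.19 to 9.47 in sham and 9.23 to 9.62 in SNI, which overlapped, and 7.67 to 9.19 in SNI + G15. Trpa1 and Trpm8 moved together over the 9 libraries, with r = 0.954 of log2(FPKM + 1).

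The fall of Trpa1 and Trpm8 after injury depended on how the libraries were scaled to neuronal markers. Scaled to the summed count of 10 pan-neuronal markers, both falls were kept, at −0.21 for Trpa1 (edgeR adjusted p = 0.00712) and −0.19 for Trpm8 (edgeR adjusted p = 0.00747). A sum follows its most abundant markers, and a geometric mean weighs all 10 alike. The marker with the highest counts, Tubb3, was at 2215 to 2394 FPKM in sham and 2983 to 3006 in SNI. Uchl1, also abundant, was at 3044 to 3185 FPKM in sham and 2956 to 3100 in SNI. The summed FPKM of the 10 markers was 6821 to 7076 in sham and 7219 to 7368 in SNI. What any single marker added to the difference between these scalings was not tested. Of the 10 pan-neuronal markers, 6 were lower and 1 higher in SNI than in sham, beside 22.4% and 23.3% of all genes. When edgeR scaled the libraries to the geometric mean of these markers, an alternative added after the data were seen, the median of all genes moved up to 0.14, 50.1% of all genes were called and 80.4% of the calls were higher, against 51.0% of the calls with TMM. Trpv1 remained lower at −0.23 (edgeR adjusted p = 0.00260), Trpa1 was at −0.03 and Trpm8 at −0.01 (edgeR adjusted p = 0.661 and 0.889), and Trpm3, Trpm7 and Trpc6 joined Trpv2 and Trpm2 among the higher genes. Under the same scaling, 1 of the 9 genes, Trpv2, was called between SNI + G15 and SNI (0.15, edgeR adjusted p = 0.0492); there the median of all genes was 0.10, 23.1% of all genes were called and 86.7% of the calls were higher, against 52.4%. For SNI + G15 against sham, 3 of the 9 and 59.8% of all genes were called, the median was 0.25 and 87.4% of the calls were higher, against 49.4%. With TMM, 6 of 10 nociceptor markers were lower and 2 higher in SNI than in sham, beside 22.4% and 23.3% of all genes. Between SNI + G15 and SNI, 4 of them were lower and 1 higher, beside 7.25% and 7.98% of all genes. The part that changes in neuronal and nociceptor RNA had in these results was not tested.

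Trpm2, a calcium-permeable channel gated by ADP-ribose that responds to oxidative stress, was at 6.34, 6.84 and 6.70 FPKM in sham and at 8.62, 8.62 and 8.86 in SNI. In SNI + G15 it was at 6.46, 7.76 and 7.10. The SNI libraries stood above all others, while SNI + G15 overlapped sham. Trpm2 rose by 0.29 in SNI (SE 0.062, edgeR adjusted p = 0.00334) in the main fit and all 17 alternatives. SNI + G15 minus SNI was −0.21 (SE 0.076, edgeR adjusted p = 0.0945), which did not pass; without SNI + G15 replicate 2 the edgeR adjusted p was 0.0296, and limma called it on either log2 scale (adjusted p = 0.0400). SNI + G15 minus sham was 0.05 (SE 0.083, 95% interval −0.13 to 0.24, edgeR adjusted p = 0.633). The summed FPKM of 4 T cell markers followed a like course, 1.77 to 2.66 in sham, 4.0 to 4.92 in SNI, with 1.68 to 2.11 in SNI + G15. Of these 4, 2 were called higher in SNI than in sham and 2 lower in SNI + G15 than in SNI. They rest on only 1 to 38 reads per library. Cd3d, Cd3e and Cd3g among them reached an FPKM of 1 only in SNI libraries. They thus entered the test through the group in which they were high, and these calls are not independent of that filter. The sum of 2 erythroid markers took such a course too, at 88.3 to 92.6, 290 to 299 and 178 to 213. Both were called higher in SNI than in sham and lower in SNI + G15 than in SNI. Over all genes tested, 23.3% were higher in the former comparison and 7.25% lower in the latter. The macrophage sum stayed high in SNI + G15. The part of any of these cell types in the Trpm2 values was not tested.

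Trpm3, a channel opened by heat and by pregnenolone sulphate, was at 5.98, 5.22 and 5.57 FPKM in sham, 5.68, 5.83 and 6.19 in SNI, and 4.70, 5.29 and 4.16 in SNI + G15. Sham overlapped both other groups, and the 2 injured groups were apart. SNI minus sham was 0.05 (SE 0.060, edgeR adjusted p = 0.550). From SNI to SNI + G15 it fell by 0.31 (SE 0.082, edgeR adjusted p = 0.0375), and it was lower than in sham by −0.29 (SE 0.090, edgeR adjusted p = 0.0274). The first call was lost in 9 of 17 alternatives, among them the fit without SNI + G15 replicate 1 (edgeR adjusted p = 0.0748) and the length-corrected fit (0.0988). The second was lost in 7 of 17, among them the fits without sham replicate 1 or 3 and without SNI + G15 replicate 1 or 3 (edgeR adjusted p = 0.0713 to 0.101).

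Trpm7 joins a magnesium-permeable channel to a kinase and is made in most cells. It was at 7.21, 7.05 and 6.97 FPKM in sham, 7.33, 7.45 and 7.0 in SNI, and 7.73, 6.86 and 5.89 in SNI + G15. All groups overlapped, and the SNI + G15 libraries were the most scattered (coefficient of variation 13.5%, against 1.73% in sham and 3.21% in SNI). No comparison passed, with estimates of 0.01 (95% interval −0.09 to 0.11), −0.08 (−0.27 to 0.11) and −0.09 (−0.28 to 0.10) for SNI minus sham, SNI + G15 minus SNI and SNI + G15 minus sham. Its promoter and that of Trpm2 hold the GC box GGGCGG, which is in 30.5% of all windows.

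Trpc1, a subunit of receptor-operated and stretch-linked channels, was at 9.06, 7.51 and 8.32 FPKM in sham, 8.03, 7.74 and 8.36 in SNI, and 7.67, 7.12 and 6.92 in SNI + G15. Sham and SNI + G15 overlapped, through sham replicate 2. The test called Trpc1 lower in SNI + G15 than in sham, at −0.22 (SE 0.074, edgeR adjusted p = 0.0374), and the call was lost in 9 of 17 alternatives, DESeq2 and limma among them. It was also lost without sham replicate 1 or 3 and without SNI + G15 replicate 2 or 3. SNI minus sham was −0.07 (SE 0.064) and SNI + G15 minus SNI −0.13 (SE 0.058), and neither passed.

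Trpc6, which is opened by diacylglycerol downstream of phospholipase C, had the lowest level of the 9 and the largest estimated change between SNI and SNI + G15. It was at 2.18, 2.29 and 2.11 FPKM in sham, 2.40, 2.87 and 2.48 in SNI, and 1.96, 1.35 and 1.8 in SNI + G15. The 3 groups did not overlap, with SNI highest and SNI + G15 lowest. From SNI to SNI + G15 it fell by 0.58 (SE 0.151, edgeR adjusted p = 0.0341); these levels rest on 125 to 150 reads in SNI and 70.0 to 102 in SNI + G15. The call was lost without SNI + G15 replicate 2, the lowest library (edgeR adjusted p = 0.0694). SNI minus sham was 0.21 (SE 0.107, edgeR adjusted p = 0.143) and SNI + G15 minus sham −0.40 (SE 0.149, edgeR adjusted p = 0.0520), neither past the threshold. Without SNI + G15 replicate 2 the latter was −0.25 and without SNI replicate 2 the former was 0.13. The latter passed without SNI + G15 replicate 1, with the summed neuronal markers and with all 9 libraries in a single fit (edgeR adjusted p = 0.0360 to 0.0397).

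The summed FPKM of the 9 genes was 134 to 135 in sham, 132 to 134 in SNI, with 116 to 123 in SNI + G15. Sham and SNI overlapped, and every SNI + G15 library was below them. Of that sum, Trpv1 made up 29.3% to 30.6% in sham, 23.4% to 23.9% in SNI, with 21.7% to 23.8% in SNI + G15. Trpv2 made up 20.5% to 21.8%, 26.4% to 27.3% and 29.97% to 31.97%. The share of Trpv2 was higher in SNI than in sham and higher again in SNI + G15, without overlap, while those of Trpm3, Trpm7 and Trpc1 overlapped in all 3.

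Gene length moved with the G15 comparison. When the genes tested were split into 5 equal classes by effective length, the median log2 difference of SNI + G15 minus SNI went from 0.16 in the shortest class to −0.11 in the longest. None of the 9 TRP genes was in classes 1 and 2, the shortest. Trpv1, Trpv2 and Trpc6 were in class 3, Trpa1, Trpm2 and Trpc1 in class 4, and Trpm8, Trpm3 and Trpm7 in class 5. For SNI minus sham the medians went from −0.03 to 0.04. A fit that removed the trend with length, added after the data were seen, left Trpv1 at −0.17, Trpm8 at −0.13 and Trpc6 at −0.58 past the threshold and Trpm3 at −0.20 not past it.

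**Figure D4:**
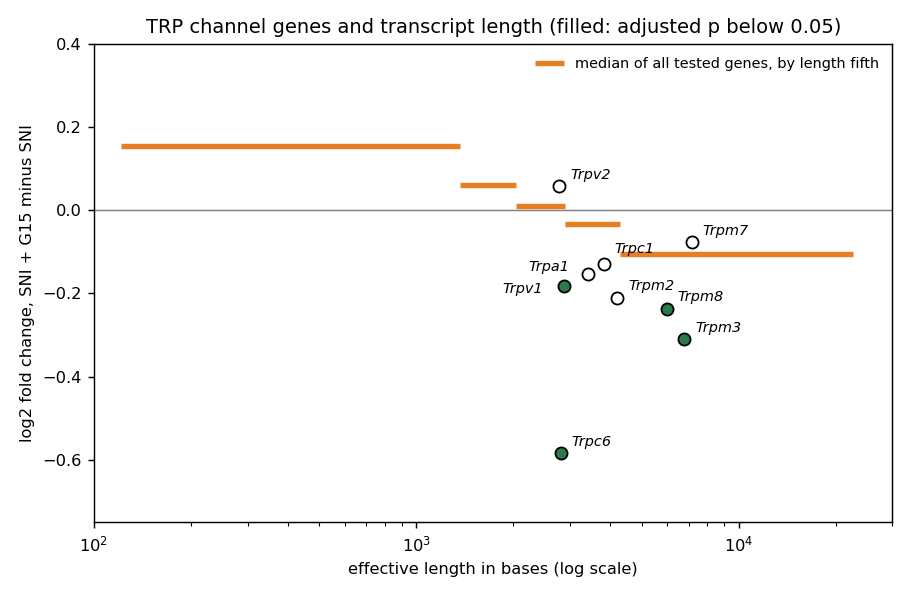
Log2 fold change of SNI + G15 minus SNI (vertical axis) against effective length in bases (log axis) for the 9 TRP channel genes (points; filled where the adjusted p is below 0.05) and the median of all genes tested in each length class (horizontal lines). The medians step from 0.16 down to −0.11, and Trpc6, Trpv1, Trpm8 and Trpm3, the filled points, lie below the line of their own class.

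Trpv1, Trpa1, Trpm3, Trpm7 and Trpc6 have a single transcript among the deposited values, so other isoforms of these genes would not be seen. For Trpm8, 1 of 5 listed transcripts gave 90.1% to 99.0% of the FPKM in every library. The curated Trpm8 RefSeq transcript was a minor part, at between 0.370 and 0.880 FPKM in sham, between 1.37 and 1.56 in SNI and between 0.0800 and 0.880 after G15. The curated Trpm2 transcript was at 1.2 to 1.49 in sham, 2.32 to 2.84 in SNI, with 0.580 to 1.27 in SNI + G15, so it was highest in SNI, as the gene was. It made up only 8.17% to 32.9% of Trpm2. Another of the 6 listed Trpm2 transcripts, XM_017601604.1, was at 1.75 to 2.41 in sham and 2.89 to 4.37 in SNI. In SNI + G15 that transcript was at 1.66 to 4.06, which overlapped both other groups. The 3 Trpv2 transcripts were split differently in each library: the transcript that led in 8 of the 9 made up 35.0% to 73.5% of Trpv2 within the SNI group alone, while the gene's sum varied little. Reads shared between isoforms are divided by estimate, and no transcript was tested.

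**Figure D5:**
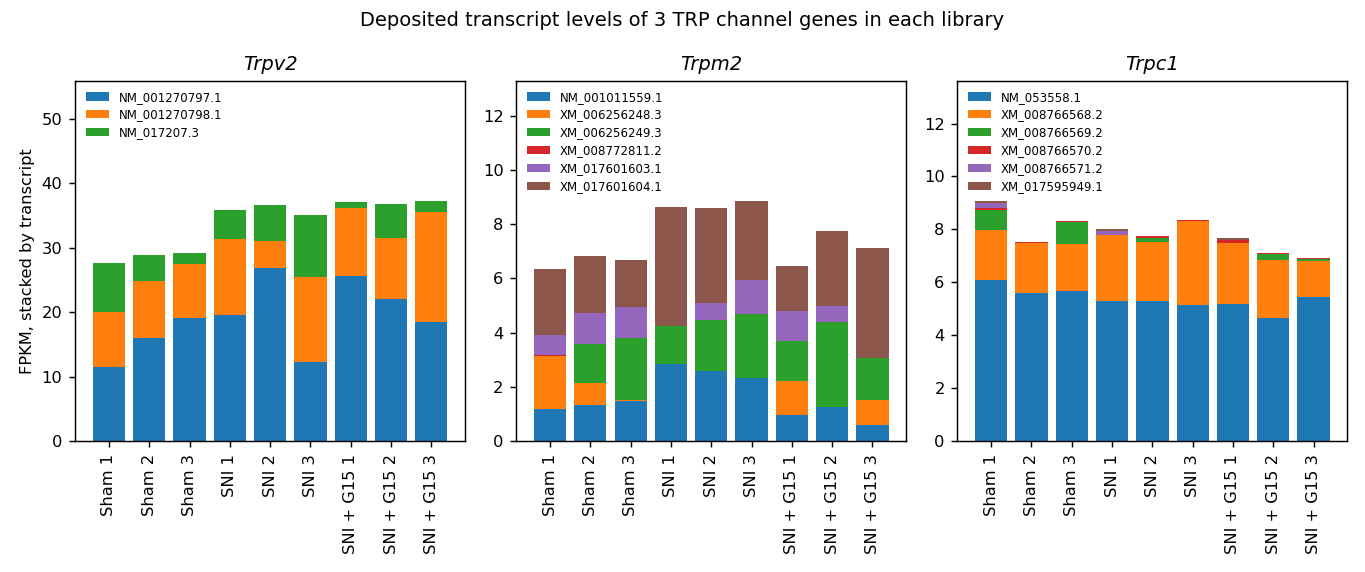
FPKM (vertical axes) of each listed transcript of Trpv2, Trpm2 and Trpc1, stacked to the gene's level, in each of the 9 libraries; colours stand for transcripts. The split among the 3 Trpv2 transcripts changes from library to library within a group, while the bar heights stay at 35.0 to 37.2 in all 6 injured libraries.

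Of 19 further genes of the TRP superfamily, 7 reached an FPKM of 1 in at least 1 library. Between SNI and sham, 1 of these 7 fell, Mcoln1, a lysosomal channel, by 0.29 (SE 0.048, edgeR adjusted p = 0.000611). Among all genes tested, 45.7% were called in that comparison, 23.3% higher and 22.4% lower. Against sham, the osmosensitive channel Trpv4 was higher in SNI + G15 by 0.83 (SE 0.198, edgeR adjusted p = 0.00720), with 0.520, 0.460 and 0.660 FPKM in sham, 0.670, 0.770 and 0.670 in SNI and 0.950, 1.01 and 1.03 in SNI + G15. The SNI + G15 libraries of Trpv4 lay above the other 6. Trpv4 reached an FPKM of 1 only in SNI + G15 libraries, so it entered the test through the group in which it was higher.

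Genes under an FPKM of 1 were tested in a fit of all genes with a count, where 34.0% of genes were called for SNI against sham, 9.63% for SNI + G15 against SNI and 32.5% for SNI + G15 against sham. Trpm6, the sister of Trpm7 in magnesium transport, was at 0.730 to 0.870 FPKM in sham, 0.290 to 0.390 in SNI, with 0.230 to 0.3 in SNI + G15. It fell by 1.202 in SNI (SE 0.138, edgeR adjusted p = 4.42e-05) and was lower by −1.66 in SNI + G15 than in sham. Mcoln3 rose by 2.14 in SNI (SE 0.494, edgeR adjusted p = 0.00578), from 0.0300 to 0.140 FPKM in sham to 0.3 to 0.460. These Mcoln3 levels rest on only 1 to 5 reads per library in sham and 11 to 17 in SNI. Pkd2l2 (−1.28, SNI minus sham) and Trpm5, Trpc4, Trpc5 and Mcoln3 (−1.46, −1.12, −0.53 and 1.79, SNI + G15 minus sham) were also past the threshold, at levels of at most 0.630 FPKM and with each call lost in some alternatives. Between SNI + G15 and SNI, 0 of the 12 genes of this low group were called by edgeR, DESeq2 or limma, and 2 had an unadjusted p under 0.05 by edgeR. Trpv5 was at 0 FPKM in all but 1 library.

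Channels are set by partners that anchor them, phosphorylate them or feed them lipids. Of 32 such genes, 29 were tested, and 8 were higher and 13 lower in SNI than in sham, with a median of −0.07, where 23.3% of all genes tested were higher and 22.4% lower. The kinase gene Camk2a fell by 0.57 (SE 0.065, edgeR adjusted p = 4.69e-05). Faah, which breaks down the TRPV1 ligand anandamide, rose by 0.92 (SE 0.087, edgeR adjusted p = 1.07e-05), from 2.75 to 3.52 FPKM to 5.81 to 6.09. The bradykinin receptor gene Bdkrb2, whose signal sensitises TRPV1 and TRPA1, rose by 0.74 (SE 0.077, edgeR adjusted p = 2.31e-05).

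Between SNI + G15 and SNI, 2 of the 29 were higher and 3 lower, with a median of −0.03, beside 7.98% higher and 7.25% lower among all genes. Tmem100, an adaptor that links TRPA1 and TRPV1 in sensory neurons, was at 6.16, 6.61 and 6.81 FPKM in sham, 7.08, 6.65 and 7.70 in SNI and 13.7, 12.5 and 14.2 in SNI + G15. Every SNI + G15 library was above all others, and the rise was 0.80 (SE 0.077, edgeR adjusted p = 0.000387), called in all 17 alternatives. Tmem100 is also made outside neurons, in endothelial cells among others; of 4 endothelial markers 1 was higher and 1 lower in this comparison, with summed FPKM of 42.4 to 43.9 in SNI, with 54.8 to 62.0 in SNI + G15, and their part in the rise was not tested. All 6 fibroblast markers were called higher in SNI + G15 than in SNI, beside 7.98% of all genes tested. The part of fibroblasts in the Tmem100 rise was not tested either.

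Against sham, 5 of the 29 were higher and 13 lower in SNI + G15, beside 21.4% higher and 21.9% lower among all genes. Prkce, a protein kinase C that phosphorylates TRPV1, was lower by −0.62 (SE 0.063), Syt9, a vesicle protein that binds TRPV1, by −0.58 (SE 0.069) and Prkaca, the catalytic subunit of protein kinase A, by −0.53 (SE 0.053). Camk2a (−0.59), Bdkrb2 (0.72), Faah (0.87) and Tmem100 (1.002) were past the threshold too.

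The genes most like each channel over the 9 libraries, by Pearson r of log2(FPKM + 1) among 13146 genes with a symbol, describe which patterns each followed. They carry the group differences and library effects that all genes share. Trpv1 was nearest to Ndrg4 (r = 0.996), Tmem150c (0.995) and Sparcl1 (0.995), and Trpv2 to RT1-DMb, Tubb2a and Ypel1 (each 0.995). RT1-DMb, a class II antigen-presentation gene, went from 9.83 to 10.8 FPKM in sham to 21.8 to 23.9 in SNI, while Tubb2a, a tubulin gene, went from 819 to 904 to 1133 to 1216. Trpa1 was nearest to Ermp1 (0.993), Abca6 (0.986) and Asah2 (0.985), and Trpm8 to Gpr35 (0.994), Clasp1 (0.991) and Gabbr1 (0.989).

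The weaker expressed channels had lower coefficients. Trpm2 was nearest to Tor3a (0.978), NMS (0.956) and Prrg1 (0.953), and Tor3a likewise stood highest in SNI, at 8.07 to 8.52 FPKM against 5.60 to 6.16 in sham and 5.77 to 6.71 in SNI + G15. Trpm3 was nearest to Ube4b (0.966), Zzef1 (0.961) and Rbsn (0.956), and Trpm7 to Adgrb3 (0.977), Sbf2 (0.952) and Wac (0.946). Trpc1 was nearest to Slit3 (0.972) and Atf7ip (0.968), and Trpc6 to Insig1 (0.957), Tmem106a (0.946) and Fam107b (0.931).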

How the data were processed

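Ganglia of 3 sham, 3 SNI and 3 SNI + G15 samples were measured by RNA-Seq. For each gene and transcript the authors deposited FPKM, scaled to length and library size. Beside it they deposited raw estimated counts, which were fractional for Trpm8 and Trpc1 in 9 of 9 libraries. Columns named as control were taken as sham. The aligner is not given in the sources used here. The submitters' processing notes name GRCm38 and mm10, which are mouse builds, while the gene identifiers are those of rat, and the extraction protocol in the labels names macrophages where the sample labels name DRG. The sources differ on the rats used for RNA-Seq (3 or 6 per group) and on the percentage of DMSO, and whether a library is 1 rat or a pool is not stated, so p-values measure only the spread between these samples, which may be technical.

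After rounding, the estimated counts went into edgeR 4.0.16 in R 4.3.3 (TMM, quasi-likelihood test, 2 groups per fit). The 14305 genes that reached an FPKM of 1 in any library were tested, with Benjamini-Hochberg adjustment and a threshold of 0.05. For genes below that level, every gene with a count was fitted. Effective length was computed from counts and FPKM. Scripts were tested on simulated data. Alternatives used DESeq2 1.42.0, limma 3.58.1 (log2 of FPKM plus 1 or 0.1), other normalizations, no FPKM filter, 9 libraries fitted together, the replicate number as a block, and omission of single replicates. Scaling to the geometric mean of neuronal markers and a length offset (lowess span 0.3) were added after the data were seen.

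The members and gene lists were chosen with earlier results of these data known. All 9 TRP genes are named. Of the other TRP genes and the channel partners, those called with an absolute log2 change of at least 0.5 are named, and Mcoln1, which was chosen after its values were seen. For each TRP gene the 3 genes with the highest correlation are given. Some genes that these rules select are not reported here. Promoter sequences are from RefSeq (GRCr8), in which 7 of 9 genes matched; Trpa1 and Trpc1 did not. The authors' own comparisons were not used.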

Additional observations from a re-analysis of the deposited data

How the results depend on the processing

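Over 17 alternatives for each TRP gene in each comparison, 386 of 459 estimates kept their direction and their side of the threshold, 48 lost the call, 11 gained it and 14 changed sign. With the replicate block, 0 of the 9 genes instead of 4, and 1292 of all genes instead of 2179, were called between SNI + G15 and SNI; the numbers do not pair the samples (correlations of same-numbered deviations between −0.13 and 0.069, under the 0.1 required), and 5 of the 9 kept an unadjusted p under 0.05. The block changed the count in no other comparison by over 1.5 times. Leaving out a replicate gave 0 to 4 TRP genes and 893 to 2333 of all genes between SNI + G15 and SNI. Scaling to the geometric mean of neuronal markers gave 1 TRP gene and 3304 of all genes in that comparison, and 3 TRP genes between SNI + G15 and sham. No estimate that changed sign was past the threshold in the main test except Trpc1 in SNI + G15 minus sham (0.040 with neuronal scaling by geometric mean). Trpm7 in SNI minus sham was −0.0012 with upper-quartile normalization, −0.034 with the summed neuronal markers, −0.0014 with all 9 libraries in a single fit, −0.038 with the length offset and −0.0088 to 0.031 with a replicate left out; Trpc1 was 0.074 with the geometric mean scaling. Trpm7 in SNI + G15 minus SNI was 0.017 with that scaling, 0.039 with the length offset and −0.17 to 0.013 with a replicate left out, and against sham it was 0.17 with that scaling and −0.18 to 0.0088 with a replicate left out. Trpm2 in SNI + G15 minus sham ran from −0.021 to 0.11 with a replicate left out. The causes were not tested, and leaving a library out also leaves fewer samples in the fit. Trpc6 had the fewest reads of the 9, 70.0 to 150 per library.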
